A study of Mus musculus with 2 samples.

Results

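Dendritic cells were a small group of barcodes in a droplet-based single-cell RNA sequencing experiment on T cells sorted from mouse spleen. They were chosen by their transcripts, counted as unique molecular identifiers (UMIs), each UMI standing for 1 captured RNA molecule. A barcode was a member when it held at least 2 UMIs of Flt3, Siglech and Zbtb46 together and at least 10 UMIs of the MHC class II genes H2-Aa, H2-Ab1 and Cd74 together. It could hold at most 1 UMI of the B cell gene Cd79a and at most 1 of the T cell genes Cd3d, Cd3e and Cd3g together. Members with at least 2 Siglech UMIs were called plasmacytoid and the others conventional. The rule found 202 members among the 16424 barcodes with at least 500 genes and at most 10% mitochondrial counts. Of these, 60 were plasmacytoid and 142 conventional.

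The study compared regulatory T cells (Treg) with and without an intact Kmt2d gene, which encodes a histone H3 lysine 4 methyltransferase. The control library, Foxp3YFP-Cre Kmt2d+/+, is written +/+, and the library with the floxed allele, Foxp3YFP-Cre Kmt2dfl/fl, is written fl/fl. Each was made from CD4+FoxP3+ cells sorted from spleens and pooled from 3 mice, whose age, strain background and relation to each other are not given in the sources used here. Both groups carried Foxp3YFP-Cre, a Cre recombinase expressed from Foxp3, the gene of the Treg lineage factor. With 1 library a group, no difference between them has a replicate check, and a test over replicates was not possible. The intervals given are exact 95% intervals that cover counting error only.

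Dendritic cells take up antigen and present it on MHC class II to CD4 T cells, and they grow under the cytokine FLT3L, whose receptor is Flt3. In the mouse spleen, conventional dendritic cells comprise a type 1 branch, marked by Xcr1 and Clec9a and known for cross-presentation to CD8 T cells, and a type 2 branch, marked by Sirpa. A mature state is marked by the chemokine receptor Ccr7 and the actin-bundling protein Fscn1. Plasmacytoid dendritic cells carry Siglech, depend on the transcription factor Tcf4 and are known for their output of type I interferon.

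The genes of the rule are given as a description, since they chose the members, which held a median of 6 UMIs of Flt3, Siglech and Zbtb46 in +/+ (range 2 to 34) and 7 in fl/fl (range 2 to 44). The median of the MHC class II UMIs was 204 in +/+ and 113 in fl/fl. Just inside the first threshold, 22 +/+ and 8 fl/fl members held exactly 2 UMIs of Flt3, Siglech and Zbtb46, and 24 barcodes of each library that met the other conditions lay just outside with 1. At the MHC class II threshold, 2 members of each library held 10 to 14 UMIs, and 2 +/+ and 3 fl/fl barcodes lay outside with 5 to 9. At the upper limit for Cd79a, 1 member of each library held 1 UMI, and 1 +/+ and 4 fl/fl barcodes lay outside with 2. At the limit for the Cd3 genes, 14 +/+ and 5 fl/fl members held 1 UMI, and 2 +/+ barcodes and 0 fl/fl barcodes lay outside with 2. Only 2 +/+ conventional members and 1 fl/fl conventional member held a single Siglech UMI.

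The deposited tables held 7947 +/+ and 8784 fl/fl barcodes, of which 7790 and 8634 passed the filters. Median depth was 5619 UMIs in +/+ and 6113 in fl/fl over these barcodes, and 9514 and 8477 in the members. The 2 libraries shared 15 barcode sequences, and 0 of these were members. T cell barcodes, defined by at least 3 Cd3 UMIs, made up 82.4% of +/+ and 74.4% of fl/fl, while B cell barcodes, with at least 3 Cd79a UMIs, made up 6.53% and 14.2%. Of the members, 14 in +/+ and 4 in fl/fl also held at least 10 UMIs of genes that mark another cell type: neutrophil S100a8 and S100a9, macrophage C1q, plasma cell Jchain, haemoglobin, or the cytotoxic genes Gzma and Ncr1. These mixed members, defined after the values were seen, had median depths of 16338 and 19158.5 UMIs, and 12 and 3 of them were conventional. Results that rest on them are given with and without them.

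Kmt2d (chromosome 15, 98831669 to 98871204, minus strand, GRCm38), the gene floxed in fl/fl, was lower in fl/fl dendritic cells. Its level, in UMIs per 1000000 UMIs summed over the members (CPM), was 68.9 in +/+ (95 UMIs in 63 of 123 members) and 37.2 in fl/fl (29 UMIs in 24 of 79). The log2 ratio of fl/fl over +/+ was -0.89 (-1.54 to -0.28), and it was -1.01 without the mixed members. Conventional members held 66.2 CPM in +/+ and 29.3 in fl/fl (-1.17, -2.08 to -0.36). Plasmacytoid members held 80.6 and 52.2 CPM (-0.63, -1.71 to 0.42), an interval that includes equality. T cell barcodes held 71.2 and 66.0 CPM, and B cell barcodes 53.5 and 39.1. Which exons were floxed, and whether counts from the 3′ end of the transcript report the deletion, is not given in the sources used here. Foxp3 was not detected in any member. By an approximate limit, 3 divided by the number of cells, 0 of 123 +/+ members allows a share with a UMI of up to 2.44%. The same limit for 0 of 79 fl/fl members is 3.8%. Unlike the intervals, these limits are not exact. In T cell barcodes, at lower median depths of 5636.5 and 6326 UMIs, 14.1% in +/+ and 11.4% in fl/fl held a Foxp3 UMI, or 6.45% and 4.42% when every cell was thinned at random to 2500 UMIs.

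Members made up 1.58% of +/+ barcodes (123 of 7790, 1.31 to 1.88%) and 0.915% of fl/fl barcodes (79 of 8634, 0.725 to 1.14%). The fl/fl share was 0.579 times the +/+ share (0.431 to 0.775). The ratio is given for each subset next, and whether the ratios of the subsets differ was not tested. Plasmacytoid cells made up 0.359% of +/+ (28 cells, 0.239 to 0.519%) and 0.371% of fl/fl (32 cells, 0.254 to 0.523%), a ratio of 1.03 (0.601 to 1.78). Conventional cells made up 1.22% of +/+ (95 cells, 0.988 to 1.49%) and 0.544% of fl/fl (47 cells, 0.400 to 0.723%), a ratio of 0.446 (0.308 to 0.640). As a share of all members, plasmacytoid cells were 22.8% in +/+ (15.7 to 31.2%) and 40.5% in fl/fl (29.6 to 52.1%). The sort was for CD4+FoxP3+ cells, so these are shares of what came through that sort and not of the spleen, and the B and T cell shares above differed between the same libraries. Per 1000 T cell barcodes there were 4.36 plasmacytoid cells in +/+ and 4.98 in fl/fl, against 14.8 and 7.31 conventional cells.

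Conventional members were divided further by marker UMIs, with limits set after the values were seen. Those with at least 5 UMIs of Ccr7 and Fscn1 formed a mature group of 14 +/+ and 16 fl/fl cells, at 0.180% and 0.185% of barcodes, a ratio of 1.03 (0.472 to 2.28). Of the others, those with at least 3 UMIs of Xcr1 and Clec9a formed a type 1 group of 16 and 9 cells, at 0.205% and 0.104%, a ratio of 0.508 (0.198 to 1.22). The remaining conventional cells numbered 65 in +/+ and 22 in fl/fl, at 0.834% and 0.255%, a ratio of 0.305 (0.179 to 0.502). The intervals of the mature and type 1 groups include equal shares, and that of the remaining cells does not. Whether the ratios of the 3 groups differ from each other was not tested.

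**Figure D1:**
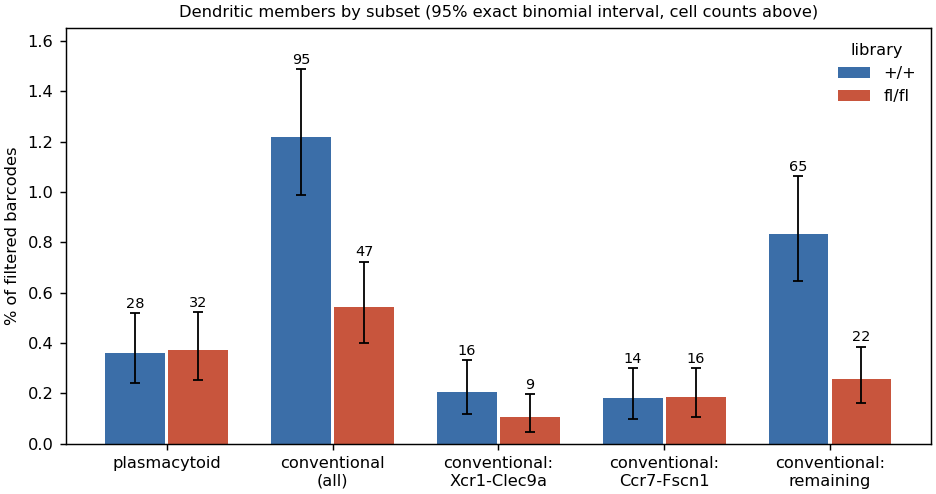
Share of filtered barcodes (%, y axis) that were plasmacytoid or conventional dendritic cells, and the 3 conventional groups, in the +/+ (blue) and fl/fl (red) libraries. Bars show 1 library each, lines the 95% exact binomial interval and the numbers over the bars count the cells: the plasmacytoid bars stand at 0.359% and 0.371%, the conventional bars at 1.22% and 0.544%.

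The plasmacytoid cells carried the transcripts known for this lineage at like levels in both libraries. Siglech, a surface lectin of the lineage and the gene that defined the split, ranged from 2 to 32 UMIs a cell in +/+ (median 13.5) and from 2 to 40 in fl/fl (median 13). Tcf4, the E protein that sets plasmacytoid fate, stood at 4784 CPM in +/+ and 5324 in fl/fl, against 217 and 213 in conventional cells. Bst2, a surface protein of plasmacytoid cells, stood at 4074 and 4660 CPM. All 28 +/+ and all 32 fl/fl plasmacytoid cells held UMIs of both Tcf4 and Bst2. The chemokine receptor Ccr9, which guides these cells to the gut, stood at 702 and 854 CPM and was found in 25 of 28 and 31 of 32 cells. Of the 30 genes of a plasmacytoid list, 29 were measured, meaning that they reached 50 CPM in either library, and 0 of the 29 were at least 2-fold higher or lower in fl/fl with an interval excluding equality. The median log2 ratio of the 29 was 0.12, beside 0.01 over all measured genes in these cells.

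Several genes were all but confined to the plasmacytoid members. Klk1, a kallikrein, summed to 362 UMIs over both libraries in plasmacytoid cells (685 CPM) and to 0 in the conventional cells, which makes it at least 372-fold higher when set against 3 UMIs over the conventional group. Klk1 has close copies in its family, so its reads may be divided among them. Cox6a2, a subunit of cytochrome c oxidase, gave 411 UMIs and 0 (777 CPM, at least 422-fold). Grm8, a metabotropic glutamate receptor, stood at 1769 CPM in +/+ and 2026 in fl/fl plasmacytoid cells, with 1 UMI in all conventional cells. The same direction held in each library for all 12 genes with the highest ratios, which also comprised Pir, Havcr1, Olfr164, Siglech, Ly6d, Mctp2, Cdh5, Paqr5 and Prkca. Among those with UMIs in the conventional cells, the protein kinase gene Prkca had the lowest ratio, at 1281 CPM over both libraries in plasmacytoid cells and 14.1 in conventional cells, a 90.7-fold ratio.

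The plasmacytoid cells also held transcripts usually named with lymphocytes. Cd4, the coreceptor used in the sort, had UMIs in 25 of the 28 plasmacytoid cells of +/+ and 28 of the 32 of fl/fl (89.3% and 87.5%), at 345 and 362 CPM. After each cell was thinned to 2500 UMIs, the shares were 64.3% (44.1 to 81.4%) and 56.3% (37.7 to 73.6%). T cell barcodes, at 163 and 121 CPM of Cd4, held it in 56.8% and 48.7% of cells, or 33.0% and 25.3% when thinned. B cell barcodes, which should lack it, held it in 0.398% and 0.170% when thinned (0.982% and 0.488% unthinned, median depths 5031 and 4458 UMIs). The share in plasmacytoid cells was thus far above that in B cell barcodes in each library.

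Conventional cells held Cd4 at 58.1 and 56.7 CPM, in 33 of 95 and 11 of 47 cells, or 10.5% and 15.6% when thinned. Within them the type 1 group was lowest, with 1 UMI in 16 +/+ cells and 0 in 9 fl/fl cells, and the remaining cells stood at 74.3 and 105.9 CPM (53 and 24 UMIs). Ly6d, a surface antigen shared by B cell progenitors and plasmacytoid cells, stood at 3211 and 3414 CPM in plasmacytoid cells and 2016 and 1731 in B cell barcodes. Ighm, the immunoglobulin heavy chain gene, was found in every plasmacytoid cell, at 848 and 840 CPM, or 100% and 90.6% of them when thinned. T cell barcodes held Ighm at 197 and 144 CPM, in 51.9% and 46.7% of cells, or 31.6% and 25.5% when thinned. Il7r, the interleukin 7 receptor, stood at 230 and 216 CPM in plasmacytoid cells and 17.0 and 11.7 in conventional cells. Between the libraries, Cd4, Ly6d, Ighm and Il7r each differed by less than 2-fold in the plasmacytoid cells.

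**Figure D2:**
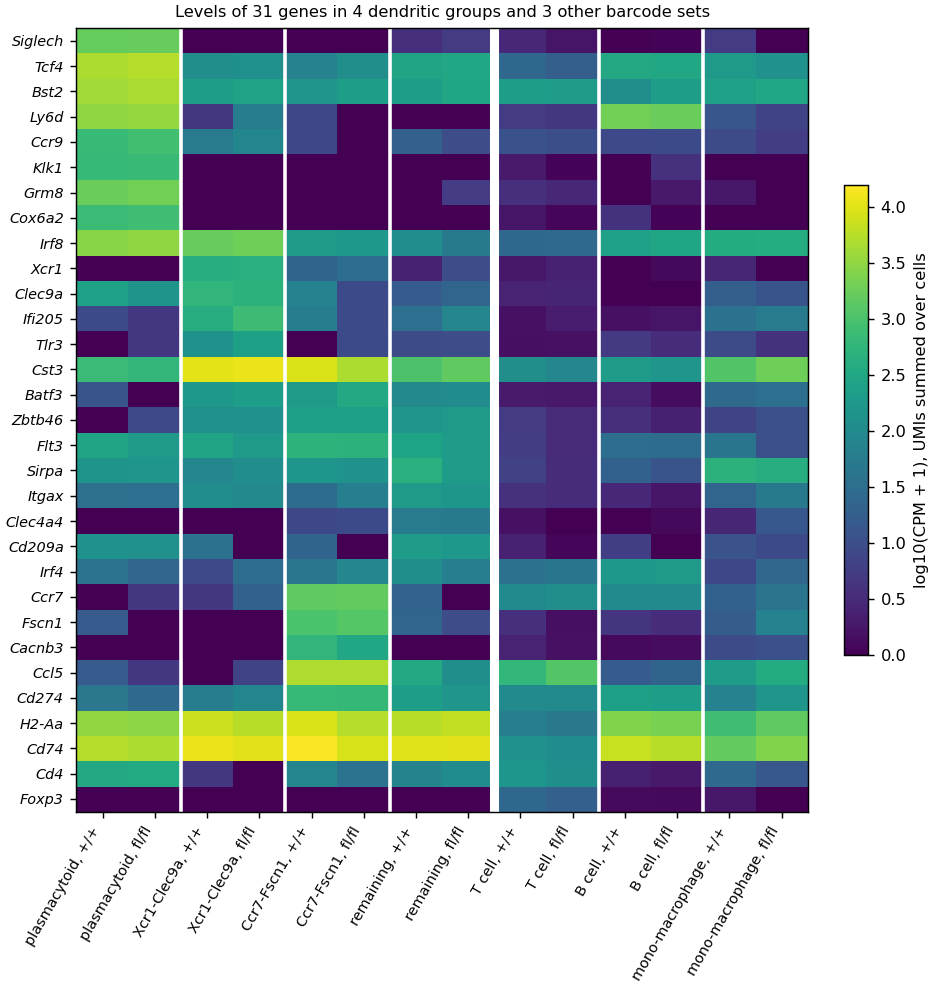
Levels of 31 genes (rows) in the plasmacytoid cells, the 3 conventional groups and T, B and monocyte-macrophage barcodes (columns, +/+ left and fl/fl right in each pair), coloured by log10(CPM + 1) of summed UMIs. Siglech, Klk1, Grm8 and Cox6a2 are bright only in the plasmacytoid columns, Xcr1 in the type 1 columns and Ccr7, Fscn1 and Cacnb3 in the mature columns, while Cd74 is bright in all dendritic columns and Foxp3 dark in them.

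Conventional cells held the MHC class II genes at higher levels than plasmacytoid cells, while the MHC class I list had a lower sum. The MHC class II list, which contains genes of the rule, summed to 31707 CPM in +/+ and 29405 in fl/fl conventional cells, against 16777 and 15906 in plasmacytoid cells. The list of MHC class I and cross-presentation genes summed to 10353 and 12813 CPM in conventional cells, against 14203 and 14791 in plasmacytoid cells. H2-Aa, the MHC class II alpha chain and a gene of the rule, stood at 6468 CPM in +/+ and 5994 in fl/fl conventional cells, and at 3288 and 3052 in plasmacytoid cells. Zbtb46, the transcription factor that marks conventional dendritic cells and a gene of the rule, stood at 155.6 and 181.9 CPM, in 75 of 95 and 41 of 47 cells, and had 0 UMIs in +/+ and 2 UMIs in fl/fl plasmacytoid cells. The 12 genes with the largest ratios towards conventional cells each had 0 UMIs in the plasmacytoid cells. They comprised Il1b, a proinflammatory cytokine (259 UMIs, 159 CPM over both libraries), its decoy receptor Il1r2 (229 UMIs) and the melanosome transport regulator Mreg (322 UMIs). The others were Nck2, Dpp10, Sirpb1a, Jchain, Chn2, Ccser1, Ifitm6, Rnf150 and Nectin1. Jchain lay mostly in few cells: 1 fl/fl cell held 702 of the 704 fl/fl UMIs, and 2 +/+ cells held 178 of the 187 +/+ UMIs.

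The 3 conventional groups differed in more than the genes that divided them. In the type 1 group, Cadm1, an adhesion molecule of type 1 dendritic cells, stood at 916 CPM in +/+ and 1265 in fl/fl, against 106.5 and 13.2 in the remaining cells. Irf8, the transcription factor required by the type 1 branch and by plasmacytoid cells, stood at 1681 and 1891 CPM in the type 1 group and 2797 and 3213 in plasmacytoid cells, but at 113.5 and 48.5 in the remaining cells. Both genes were thus higher in the type 1 group than in the remaining cells of each library.

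The mature group held Relb, an NF-κB subunit, at 907 and 1129 CPM, against 207 and 216 in the remaining cells. The chemokine Ccl5 stood at 4977 and 4975 CPM in it and 340.5 and 123.6 in the remaining cells. Cst3, a cysteine protease inhibitor abundant in dendritic cells, separated the groups unevenly: it ranged from 35 to 424 UMIs a cell in the +/+ type 1 group (median 168) and from 0 to 561 in the +/+ mature group (median 8). Sirpa, the type 2 receptor for CD47, was highest in the remaining cells, at 465 CPM in +/+ and 207 in fl/fl, against 86.3 and 113.8 in the type 1 group. Cd209a, a C-type lectin of type 2 cells, had UMIs in 29 of the 65 remaining cells of +/+ and 7 of the 22 of fl/fl, at 200.4 and 172 CPM. It was not particular to them, since plasmacytoid cells held it at 138 and 134 CPM.

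Set against the other barcodes of the same libraries, the genes that led the members were largely those of the 2 subsets. This describes the choice of cells and is no test. Siglech, Klk1, Cox6a2 and Grm8 headed the 20 genes with the highest ratios, followed by Clec9a (85.4-fold over both libraries) and Ifi205 (72.8-fold), both on the type 1 list. Clec9a was not particular to type 1 cells: plasmacytoid cells held it at 257 and 149 CPM, in 22 of 28 and 16 of 32 cells, beside 570 and 499.6 CPM in the type 1 group and 15.4 and 22.1 in the remaining conventional cells. Ccnd1, cyclin D1, stood at 529 CPM in +/+ and 716 in fl/fl members against 10.9 and 8.26 in the other barcodes. Apol7c, an apolipoprotein L gene, stood at 244 and 309 CPM against 6.64 and 2.79. Zfp366, the zinc finger gene also called DC-SCRIPT, stood at 165 and 169 CPM against 4.53 and 1.62. Batf3, the factor needed for type 1 development, stood at 102.3 and 130.9 CPM against 2.45 and 2.51.

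Between the libraries, 54 genes were at least 2-fold higher in fl/fl members with an interval excluding equality, 1.35% of the 4009 measured, and 107 were at least 2-fold lower, 2.67%. These are numbers past a rule of size and not genes found by a test. Leaving out the mixed members gave 48 higher and 45 lower of 3941. Because the libraries held different mixtures of the subsets, values are given within each. In plasmacytoid cells 94 genes were higher (2.32% of 4047) and 149 lower (3.68%), and without the mixed members 86 and 109. In conventional cells 88 were higher (2.23% of 3938) and 147 lower (3.73%), and without the mixed members 106 and 84.

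Of the 12 genes that stood lowest in fl/fl by the naming rule, 5 belong to a list of macrophage markers, and each of the 12 was held by between 6 and 40 of the 123 +/+ members. The rule took the 12 lowest and 12 highest ratios over all members among genes held by at least 5 members of the higher library and with 1 direction in both subsets. The lowest were Ptprm, Mertk, Ank2, Itgad, Glis3, Maf, Itga9, Slc40a1, Vcam1, C1qb, Axl and Apoe. Mertk, a receptor for apoptotic cells on macrophages, gave 133 UMIs in 8 of 123 +/+ members and 1 UMI in 1 of 79 fl/fl members. Slc40a1, the iron exporter of red pulp macrophages, gave 155 UMIs in 12 +/+ members and 7 UMIs in 4 fl/fl members. Once the mixed members were left out, Mertk kept 3 UMIs in +/+ and 1 in fl/fl, and Slc40a1 kept 2 and 1.

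Of 13 macrophage markers, 10 were measured and all 10 were past the 2-fold rule, lower in fl/fl, beside 2.67% of all measured genes. The median log2 ratio of the 10 was -3.09. The summed level of the 13 was 1436 CPM in +/+ and 196 in fl/fl. With the mixed members left out it was 201 and 148 CPM in conventional cells and 25.1 and 43.5 in plasmacytoid cells, where 1 and 0 of the 13 genes were measured. Of 10 erythroid and platelet markers, 4 were measured and all 4 were past the rule, lower, beside the same 2.67%. The summed level of these markers was 1517 and 78.3 CPM. The C1q genes gave 632 UMIs in +/+ members, of which 95.4% lay in 12 mixed members, and 49 UMIs in fl/fl members. The haemoglobin genes gave 2081 UMIs in +/+, of which 99.3% lay in 3 mixed members. A doublet caller called 0 of 123 +/+ and 1 of 79 fl/fl members, and 0 of 14 and 1 of 4 of the mixed members. Its threshold caught only 19.3% of its simulated doublets in +/+ and 35.2% in fl/fl, so cells it did not call may still be doublets.

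**Figure D3:**
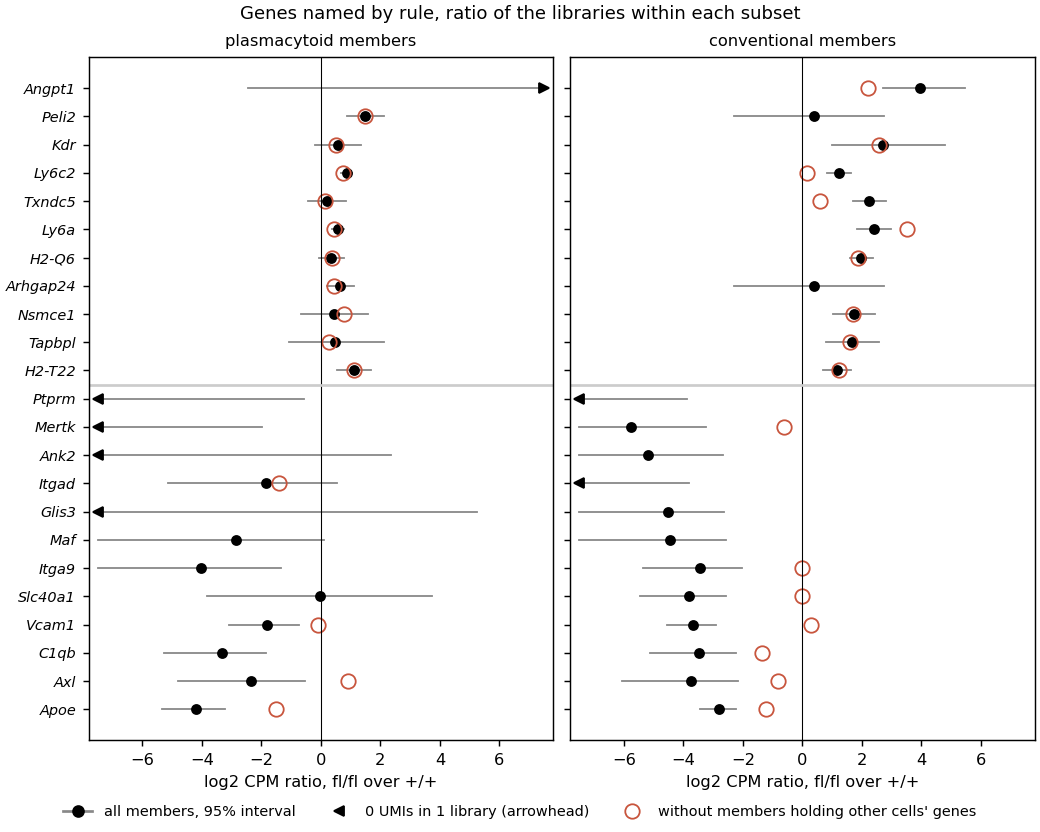
Log2 ratio of CPM, fl/fl over +/+ (x axis), for genes named by rule (rows) in plasmacytoid (left) and conventional (right) members. Black points are all members with the 95% interval, arrowheads mark genes with 0 UMIs in 1 library and red circles leave out the mixed members: no circle is drawn where a library then held 0 UMIs. Over all members, leaving them out moved Vcam1 from -3.38 to 0.02, Itgad from -5.10 to -2.33 and Apoe from -3.17 to -1.45, while in plasmacytoid members Peli2, H2-Q6 and H2-T22 stood at 1.48, 0.36 and 1.11 without them.

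Once the mixed members were left out, the lowest ratio by the same rule was that of Apobec3 (chromosome 15, 79891659 to 79915906, plus strand, GRCm38), a cytidine deaminase that restricts retroviruses (381 and 57.2 CPM, -2.74). In all plasmacytoid cells, mixed ones included, it ranged from 0 to 20 UMIs in +/+ (median 6) and from 0 to 2 in fl/fl (median 0), so that 27 of 28 and 10 of 32 cells held it. Its level there was 668 CPM in +/+ and 44.8 in fl/fl, a log2 ratio of -3.90 (-4.88 to -3.06). In conventional cells it ranged from 0 to 13 UMIs in +/+ (median 3) and from 0 to 3 in fl/fl (median 1), and its level was 284 and 64.5 CPM (-2.14, -2.70 to -1.62). The 2 libraries overlap only in the cells with few UMIs.

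When each cell was thinned to 2500 UMIs, 82.1% of +/+ and 9.38% of fl/fl plasmacytoid cells held an Apobec3 UMI. In conventional cells the thinned shares were 49.5% and 17.8%. The gap was not limited to dendritic cells: T cell barcodes held 154 and 21.5 CPM, B cell barcodes 341 and 24.9, and monocyte-macrophage barcodes 148 and 19.0. Within the dendritic cells the mature group held 631 and 63.2 CPM and the type 1 group 270 and 88.5.

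The next lowest ratios with the mixed members left out were those of Vps37b, Wdfy3, Apoe, Ctnnd2, Cebpa, Gcnt2, Lyz2, Stap1, Kcnq1ot1, Mapk8 and Abcb1a. In plasmacytoid cells some of these rested on few UMIs in +/+ and fl/fl: Wdfy3 on 3 and 2, Lyz2 on 1 and 0, and Abcb1a on 3 and 0. The shared direction of those genes in both subsets is therefore weak. Vps37b, a subunit of the ESCRT-I sorting complex, stood without them at 84.4 and 11.2 CPM in conventional cells and 134 and 47.4 in plasmacytoid cells. Ctnnd2, a delta catenin, likewise stood at 225 and 71.7 CPM in conventional cells (-1.65, -2.24 to -1.10) and 147 and 90.9 in plasmacytoid cells, with an interval that includes equality. Cebpa, a myeloid transcription factor, stood at 47.9 and 17.9 CPM in conventional cells and 62.9 and 23.7 in plasmacytoid cells. The plasmacytoid ratio of Cebpa (-1.41, -3.06 to 0.04) also has an interval that includes equality.

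Among the 12 genes that stood highest in fl/fl by the rule, over all members, were Angpt1, Peli2, Kdr, Ly6c2, Txndc5, Ly6a, H2-Q6, Arhgap24, Nsmce1, Tapbpl and H2-T22. Angpt1 rested on 1 cell, which held 35 of its 44 fl/fl UMIs, and Txndc5 held 73 of 136 fl/fl UMIs in 1 cell. Txndc5 stood at 53.8 and 88.6 CPM without the mixed members. The genes described next had their UMIs spread over more cells.

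Ly6a (chromosome 15, 74994877 to 74998031, minus strand), the surface antigen Sca-1, was high in nearly all plasmacytoid cells. It ranged there from 0 to 32 UMIs in +/+ (median 12) and from 2 to 44 in fl/fl (median 15), at 1324 and 1955 CPM (log2 ratio 0.56, 0.36 to 0.76), and most cells of the 2 libraries overlapped. In conventional cells 11 of 95 in +/+ and 19 of 47 in fl/fl held it, at 34.9 and 184 CPM (2.40, 1.84 to 2.98), or 3.16% and 26.7% of cells when thinned. The ratio there was 3.52 without the mixed members (14.8 and 170.2 CPM). T cell barcodes stood at 190.1 and 192.1 CPM, and B cell barcodes at 505 and 824. Monocyte-macrophage barcodes held 13.4 and 178 CPM of Ly6a (3.73, 2.94 to 4.61), so a higher fl/fl level was not limited to dendritic cells. Ly6c2, a relative of Ly6a, stood at 1466 and 2675 CPM in plasmacytoid cells (0.87, 0.69 to 1.05). In conventional cells it stood at 94.8 and 221 CPM, and at 73.0 and 80.6 without the mixed members. B cell barcodes held 167 and 597 CPM of Ly6c2 (1.83, 1.71 to 1.95). T cell barcodes held 86.5 and 115.5 CPM and monocyte-macrophage barcodes 1209 and 1521. The higher fl/fl level of Ly6c2 was thus not limited to dendritic cells.

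The MHC class I-like genes H2-Q6 and H2-T22 have close copies, so their counts are uncertain. H2-Q6 ranged from 0 to 6 UMIs in +/+ conventional cells (median 0) and from 0 to 9 in fl/fl (median 3). It was found in 42 of 95 and 39 of 47 of them, at 75.1 and 297 CPM (1.98, 1.59 to 2.39), or 13.7% and 55.6% when thinned. In plasmacytoid cells it stood at 338 and 429 CPM (0.35, -0.07 to 0.76), and in T cell barcodes at 190.4 and 185.4. Monocyte-macrophage barcodes held 24.2 and 76.1 CPM of H2-Q6 (1.66, 0.95 to 2.39), so its higher fl/fl level was not limited to dendritic cells either. H2-T22 was higher in both subsets, at 146 and 313 CPM in plasmacytoid cells (1.10, 0.54 to 1.70) and 67.1 and 150.6 in conventional cells (1.17, 0.69 to 1.64). T cell barcodes held 155 and 210.1 CPM of H2-T22, and monocyte-macrophage barcodes 55.5 and 114 (1.04, 0.53 to 1.55). Apobec3, Ly6a and Ly6c2 lie on chromosome 15, as Kmt2d does, and H2-Q6 and H2-T22 on chromosome 17. The strain background of the mice is not given in the sources used here. A difference of strain and a difference of genotype therefore cannot be told apart in these ratios. The genes named without the mixed members were not confined to chromosomes 15 and 17. Those lower in fl/fl comprised 4 on chromosome 5, 3 on chromosome 7 and 2 on chromosome 15, and those higher 2 each on chromosomes 7, 15 and 17. Whether any chromosome held more than its share of measured genes was not tested.

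Among the members, Peli2, a ubiquitin ligase of the Toll-like receptor pathway, was held mostly by plasmacytoid cells. Its UMIs lay in 16 of the 28 plasmacytoid cells of +/+ and 24 of the 32 of fl/fl, with 0 to 4 UMIs (median 1) and 0 to 9 UMIs (median 2). The level was 119 and 332 CPM (1.48, 0.88 to 2.12), and 121.5 and 340 without the mixed members. Conventional cells held 5 and 3 UMIs in all, and 2 and 0 without the mixed members. T cell barcodes held 9.0 and 22.7 CPM of Peli2, so a higher fl/fl level was not limited to plasmacytoid cells. Kdr, the VEGF receptor 2 gene, was likewise held mostly by plasmacytoid cells, at 95.9 and 142 CPM there (0.56, -0.20 to 1.35), an interval that includes equality.

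**Figure D4:**
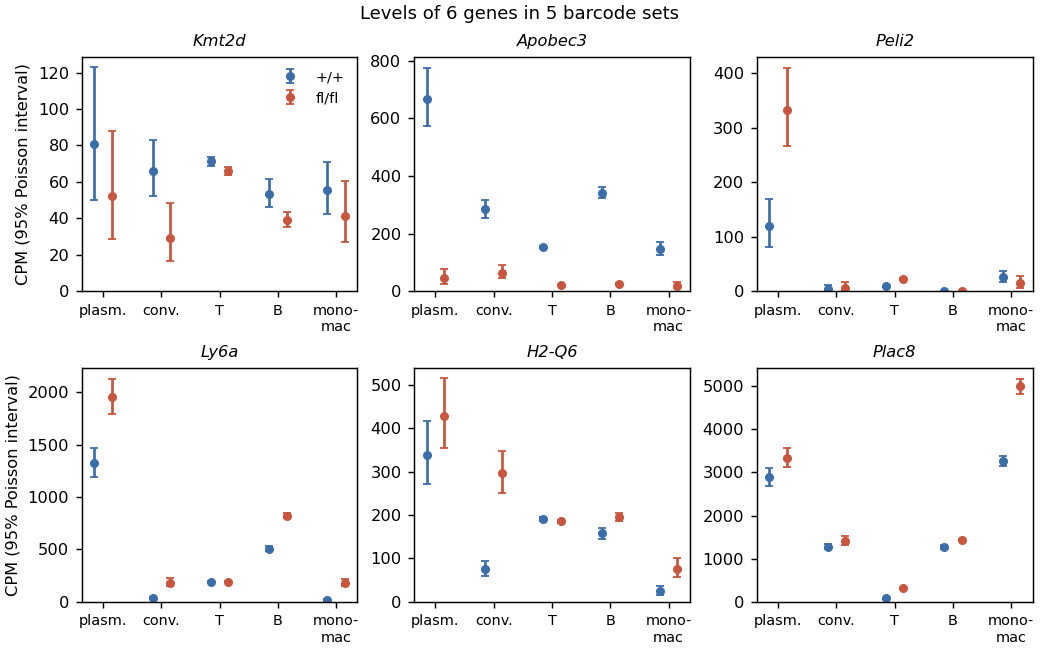
Levels of 6 genes (CPM, y axis) in plasmacytoid and conventional dendritic cells and in T, B and monocyte-macrophage barcodes (x axis), +/+ in blue and fl/fl in red, with 95% Poisson intervals. The genes are Kmt2d, Apobec3, Peli2, Ly6a, H2-Q6 and Plac8: Apobec3 stands lower in fl/fl in all 5 sets. H2-Q6 stands at 75.1 and 297 CPM in conventional cells, 24.2 and 76.1 in monocyte-macrophage barcodes and 190.4 and 185.4 in T cell barcodes.

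Plac8, a gene of activated lymphoid and plasmacytoid cells shown because T cell barcodes differed in it (75.9 and 322 CPM), stood at 2893 and 3339 CPM in plasmacytoid cells and 1280 and 1420 in conventional cells. Its ratio was thus well under 2-fold in each of the 2 subsets. In the mature group Plac8 stood at 138 and 553 CPM (2.00, 1.26 to 2.82), where 1 fl/fl cell held 61 of the 70 UMIs. P2rx7, the ATP-gated channel named in the study's title, was low in the members, at 29.0 and 19.2 CPM (-0.59, -1.56 to 0.30), an interval that includes equality. T cell barcodes held 59.9 and 39.0 CPM of P2rx7. Of 21 purinergic genes, 6 were measured in conventional cells. Entpd1, the ectonucleotidase CD39, stood at 109.1 and 37.2 CPM (35 of 95 and 15 of 47 cells), past the rule with mixed members only. The adenosine receptor gene Adora2a stood at 25.0 and 66.5 CPM (1.41, 0.64 to 2.18) and stayed past the rule without them, at 28.5 and 67.2.

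In conventional cells most measured type 2 genes had a ratio below 1, and most type 1, mature and chemokine genes a ratio above 1, but fewer than 1 in 2 of each list passed the 2-fold rule. Over all measured genes in these cells, 2.23% passed it higher and 3.73% lower, or 2.76% and 2.19% without the mixed members. Of 13 measured type 2 genes, all 13 had a ratio below 1 and 5 were past the 2-fold rule, lower: Sirpa, Clec4a1, Clec4a2, Itgam and Csf1r. Their median log2 ratio was -0.84, beside -0.01 over all measured genes in conventional cells. When the mixed members were left out, 13 of 13 were still below 1, the median was -0.63, and 2, Clec4a2 and Itgam, were past the rule. Sirpa stood at 337 and 162 CPM over all conventional cells (-1.05, -1.42 to -0.71), with UMIs in 67 of 95 and 29 of 47 cells. Clec4a2, an inhibitory lectin receptor, stood at 85.0 and 21.5 CPM (-1.98, -3.03 to -1.08). The remaining cells, in which both genes were highest, made up 68.4% of +/+ and 46.8% of fl/fl conventional cells. Within the remaining cells alone, Sirpa had a log2 ratio of -1.17 (-1.64 to -0.72) and Clec4a2 one of -1.70 (-2.87 to -0.71). Both ratios were taken with the mixed members left in. Csf1r and Clec4a1 were also high in monocyte-macrophage barcodes, at 449.5 and 477.5 CPM for Csf1r and 184 and 228 for Clec4a1. Csf1r was among the genes that chose those barcodes, so its level there is a description.

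Of 13 measured type 1 genes, 11 had a ratio above 1 and 2 were past the rule, higher (median 0.54). They were Ifi205, an interferon-inducible gene (129 and 270 CPM, 1.07), and Tlr3, the sensor of double-stranded RNA (37.6 and 82.1 CPM, 1.13). Within the type 1 group itself, Ifi205 stood at 420.3 and 752.5 CPM and was found in 15 of 16 and 9 of 9 cells. Of 19 measured genes of the mature list, 18 had a ratio above 1 and 5 were past the rule, higher (median 0.65): Fscn1, Socs2, Il12b, Anxa3 and Serpinb6b. Of these, Fscn1, Socs2 and Il12b were past it without the mixed members. The mature cells were 14.7% of +/+ and 34.0% of fl/fl conventional cells. Within the mature group alone, Fscn1 stood at 1016 and 1256 CPM (0.31, -0.03 to 0.64) and Ccr7 at 1509 and 1532 (0.02, -0.27 to 0.31), and both intervals include equality. Both genes chose this group, so their levels within it are a description and no check on the other genes of the list.

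Of 12 measured cytokine and chemokine genes, 10 had a ratio above 1 and 5 were past the rule, higher, in conventional cells. The median log2 ratio was 0.95, and the same 5 were past the rule without the mixed members. Over all measured genes there, 2.23% passed it higher, or 2.76% without the mixed members. Cxcl9, a chemokine induced by interferon gamma, stood at 91.2 and 462 CPM (2.34, 2.00 to 2.69). Its UMIs lay in 12 of 95 and 16 of 47 cells, with a median of 0 in each library. The richest cell held 34 of 102 UMIs in +/+ and 84 of 236 in fl/fl. In the type 1 group Cxcl9 stood at 244 and 1334 CPM (4 of 16 and 6 of 9 cells). The UMIs of Il12b and Ccl3 were concentrated: Il12b, the p40 chain of interleukin 12, was held by 5 cells of each library, 1 of which held 82 of 93 fl/fl UMIs. A single cell held 86 of 151 +/+ and another 96 of 172 fl/fl UMIs of the chemokine gene Ccl3. Ccl4 stood at 191 and 415 CPM and Cxcl10 at 26.8 and 64.5.

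Of the interferon response genes, 1 stood past 2-fold in opposite directions in the 2 subsets, Isg15, a ubiquitin-like protein induced by type I interferon. In conventional cells 3 of 15 measured genes of the list were higher in fl/fl (Isg15, Irf7 and Iigp1), beside 2.23% of all measured genes. The median of the list was 0.49. Without the mixed members 2 of 13 were higher (median 0.40), beside 2.76% of all. Irf7, a master factor of the interferon response, stood at 66.2 and 141 CPM there (1.09, 0.60 to 1.58), and its ratio was 0.95 without the mixed members. Iigp1, an interferon-induced GTPase, was held by 2 of 95 and 11 of 47 cells (8 and 41 UMIs), with 0 and 41 UMIs once the mixed members were left out. In plasmacytoid cells 0 of 15 were higher and 2 lower, Isg15 and Rsad2, beside 2.32% and 3.68% of all measured genes there. The median was -0.43, or -0.49 with the gene at 0 set to its bound. Without the mixed members 0 of 14 were higher and 1 lower (median -0.29), beside 2.07% and 2.63% of all. Rsad2 gave 14 UMIs in 3 +/+ cells and 0 in fl/fl. Isg15 gave 38 UMIs in 8 of 28 +/+ plasmacytoid cells, 19 of them in 1 cell, and 3 UMIs in 3 of 32 fl/fl cells. Its UMIs in conventional cells lay in 34 of 95 and 16 of 47 cells. The richest conventional cell held 13 of 77 UMIs in +/+ and 22 of 76 in fl/fl.

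Of 12 measured cell cycle genes in conventional cells, 1, the thymidylate synthase gene Tyms, was past the rule, higher in fl/fl, beside 2.23% of all measured genes. All 12 had a ratio above 1, with a median of 0.75. With the mixed members left out, 14 were measured and 5 were past it, beside 2.76% of all: Cdk1, Ccnb2, Birc5, Tyms and Hmgb2. Few cells carried most of these transcripts: Cdk1, the kinase that drives mitosis, was held by 5 of 83 +/+ and 6 of 44 fl/fl of these cells. In plasmacytoid cells 4 genes of the list were measured and 0 were past the rule.

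**Figure D5:**
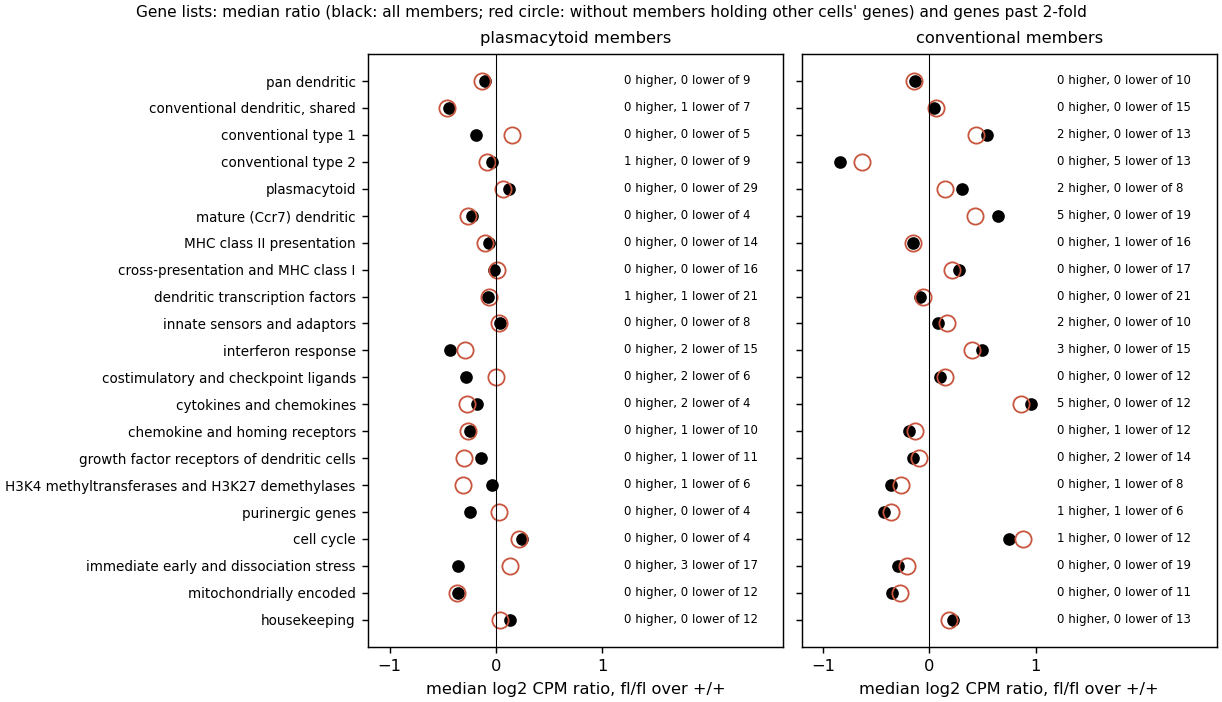
Median log2 ratio of CPM, fl/fl over +/+ (x axis), of the measured genes of 21 lists (rows) in plasmacytoid (left) and conventional (right) members. Black points are all members, red circles leave out the mixed members and the text gives the number of measured genes at least 2-fold higher or lower: type 2 genes lie lowest in conventional members (-0.84) and cytokines and chemokines highest (0.95).

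Within the subsets, the lists of antigen presentation gave 1 gene past the rule between the libraries. Of 16 measured MHC class II genes in conventional cells, 0 were past the rule higher and 1 lower, Lgmn, a lysosomal protease (152 and 48.9 CPM), with a median of -0.16, beside 3.73% lower over all measured genes there. None of the 16 (0 of 16) was past it without the mixed members. In plasmacytoid cells 0 of 14 were past the rule in either direction. Of 17 measured genes of MHC class I and cross-presentation, 0 were past it in conventional cells, with a median of 0.28. That list does not contain H2-Q6 and H2-T22, described above, or Tapbpl, a relative of the peptide-loading protein tapasin, which stood at 17.9 and 56.7 CPM in conventional cells (1.66, 0.79 to 2.56). The dendritic transcription factors gave 0 of 21 in conventional cells and, of 21 in plasmacytoid cells, Klf4 higher (72.9 and 149 CPM) and Cebpa lower (92.1 and 22.4 CPM), of which Klf4 was past the rule without the mixed members. Costimulatory genes gave 0 of 12 in conventional cells, where Cd86, a ligand of CD28, stood at 614 and 585 CPM.

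The counts that follow for plasmacytoid cells stand beside 2.32% higher and 3.68% lower over all measured genes there. Of the other lists, growth factor receptors gave 1 of 11 past the rule, Csf2rb2, the mouse interleukin 3 receptor beta chain, at 222.5 and 93.3 CPM (-1.25, -1.99 to -0.55) and lower in fl/fl also without the mixed members. Costimulatory genes gave 2 of 6 lower, Cd86 and Lgals9, of which only Lgals9, galectin 9, was past the rule without the mixed members. Of the H3K4 methyltransferase and H3K27 demethylase genes, 1 of 6 was past the rule there, the demethylase gene Kdm6b (103.6 and 44.8 CPM), and 0 of 8 without the mixed members, while in conventional cells Kmt2d was 1 of 8, lower, with and without them. Immediate early genes gave 3 of 17 lower, Atf3, Ier2 and Egr1, and 0 of 15 without the mixed members. Egr1, a serum-induced factor, gave 70 +/+ UMIs in 2 cells. Cxcl9 gave 63 UMIs in 1 +/+ plasmacytoid cell, a mixed one, and 0 in fl/fl. All 12 measured mitochondrially encoded genes had a ratio below 1 in plasmacytoid cells, with a median of -0.36, and 0 were past the rule. The median share of mitochondrial counts was 3.88% in +/+ and 2.88% in fl/fl plasmacytoid cells, and 2.43% and 1.74% in conventional cells. The part of RNA quality in the ratios above was not tested.

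Transcripts of B and plasma cells in conventional cells lay mostly in few cells. Igkc, the kappa light chain gene, stood at 1541 CPM in +/+ and 4122 in fl/fl conventional cells, where 1 cell held 1188 of 1723 UMIs and another 2066 of 2108, and at 45.6 and 89.6 CPM without the mixed members. Of 11 plasma cell genes, 4 were measured (1085 and 1533 CPM summed), 1 past the rule higher and 2 lower. Over all measured genes in conventional cells, 2.23% passed it higher and 3.73% lower. Without the mixed members 1 plasma cell gene was measured and 0 were past the rule (117.5 and 112.0 CPM). Of 14 B cell genes, 1 was measured there, Ighm, and 2028 of its 2098 fl/fl UMIs lay in 1 cell. The summed level of the B cell list was 224 and 4187 CPM in conventional cells and 243 and 211 without the mixed members, with 3 of 14 genes at 0 in each library. Of 16 T cell genes, 1 was measured in conventional cells, the transcription factor gene Tcf7 (39.4 and 80.2 CPM, 13 of 95 and 15 of 47 cells, past the rule with the mixed members only). The summed level of the T cell list was 128 and 168 CPM in conventional cells and 318 and 332 in plasmacytoid cells. Of 7 basophil and mast cell genes, 2 were measured in conventional cells: Mcpt8 and Prss34, basophil proteases, gave 29 and 33 UMIs in 1 fl/fl cell and 0 in +/+. Of 11 neutrophil genes, 8 were measured in conventional cells with mixed members (7579 and 8171 CPM summed) and 0 without them (38.8 and 13.4). Of 13 monocyte genes, 9 were measured in conventional cells (3631 and 3540 CPM summed). Lyz2, lysozyme, stood at 868.5 and 905.4 CPM there (0.06, -0.10 to 0.22), and without the mixed members at 643.5 and 315.8 CPM (-1.03, -1.30 to -0.76), in 26 of 83 and 9 of 44 cells. Beyond leaving out the mixed members, the part of these cells in the other ratios was not tested.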

How the data were processed

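The raw UMI counts per gene and barcode that the authors deposited were used as whole numbers, for 31253 genes, with no normalization. Cell Ranger 7.1.0 made them, per the file headers; fastp, Seurat 4.1.1 and the builds mm10 and GRCm38 are named in the submitters' processing notes. Counts were summed over the cells of each set and scaled to CPM. A gene was measured at 50 CPM in either library and past the rule of size at a ratio of 2 or more with an interval excluding equality. Intervals were exact (Poisson, Clopper-Pearson binomial, and conditional binomial for ratios; scipy 1.17.1, Python 3.11.15). The interval and the rule were tried only on simulated Poisson counts, the kind of count the intervals are built for. Real UMIs of some genes lay mostly in 1 cell, which that simulation left out, so it does not cover such clustering. Shares of cells with a UMI were also taken after thinning each cell to 2500 UMIs, leaving out 2 shallower fl/fl members and, of T cell barcodes, 45 in +/+ and 28 in fl/fl.

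No cell was removed as a doublet in the values reported: a caller that scores barcodes against simulated doublets (2 per barcode, expected rate 6%) called 1.62% of +/+ and 2.69% of fl/fl barcodes, and leaving these out was an alternative. Gene positions come from the GENCODE annotation of GRCm38. T cell barcodes had at least 3 Cd3 UMIs and at most 1 Cd79a UMI, B cell barcodes at least 3 Cd79a and 0 Cd3 UMIs, and monocyte-macrophage barcodes at least 3 UMIs of Csf1r, Adgre1 and Fcgr1.

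Named genes were the genes of the rule with Kmt2d, P2rx7, Foxp3 and Cd4; the 12 highest and 12 lowest ratios between the libraries, with UMIs in at least 5 members and the same direction in both subsets; the 12 genes leading each subset and the 20 leading the members, at 100 CPM or more; and list members past the rule of size. Apobec3, Plac8, the lymphoid genes and the values within the 3 conventional groups were chosen after their values were seen. The members and the gene lists were chosen with earlier results of these data known. Ranks left out antigen receptor segments, sex-linked genes, gene models without a symbol, and genes encoded in mitochondria or for ribosomal proteins. A few genes that met the naming rule are not reported here.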

Additional observations from a re-analysis of the deposited data

Results flagged for a closer look

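Isg15, Rasa1 and Mast4 stood past 2-fold in opposite directions in the 2 subsets, held by at least 5 cells and with the same signs without the mixed members. The difference between the subsets was not tested in any of them. Isg15 had a log2 ratio of fl/fl over +/+ of -3.70 in plasmacytoid cells (-6.04 to -2.05; 38 and 3 UMIs) and 1.11 in conventional cells (0.63 to 1.59; 77 and 76 UMIs). In +/+ plasmacytoid cells 19 of its 38 UMIs lay in 1 cell, and without the mixed members the ratios were -3.33 and 1.14. Of the conventional cells, 34 of 95 in +/+ and 16 of 47 in fl/fl held Isg15, with a median of 0 in each library. The richest of them held 13 of the 77 +/+ UMIs and 22 of the 76 fl/fl UMIs. Rasa1, a GTPase-activating protein of Ras, had ratios of 1.60 in plasmacytoid cells (0.41 to 2.96; 7 of 28 and 14 of 32 cells) and -1.23 in conventional cells (-2.04 to -0.49; 50 of 95 and 12 of 47 cells). Mast4, a serine/threonine kinase gene, had ratios of 1.30 (0.46 to 2.20; 17 and 43 UMIs) and -1.07 (-1.81 to -0.39; 101 and 22 UMIs), and the second was -0.87 without the mixed members.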

How the results depend on the processing

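No paired analysis was possible because each group has 1 library, and no library could be left out. Asking for 3 UMIs of Flt3, Siglech and Zbtb46 gave shares of 1.30% in +/+ and 0.822% in fl/fl (dendritic; ratio 0.634, 0.461 to 0.868) and 0.95% and 0.452% (conventional; 0.476, 0.314 to 0.710). The 54 genes higher and 107 lower in fl/fl became 180 and 249 at a floor of 20 CPM, 31 and 48 at 100 CPM, 245 and 305 at 1.5-fold, and 12 and 45 at 3-fold. Thinning to 2500 UMIs gave 134 higher, and the mean of the 2 subsets' CPM gave 33 higher. Leaving out the mixed members, a choice made after seeing the data, gave 45 lower in dendritic and 84 lower in conventional cells. It also turned the ratio of Vcam1 from -3.38 to 0.0205. Of the named ratios that could be computed without them, 19 of 32 moved by less than their interval, 12 moved further and 1 reversed. With the mean of the subsets' CPM 12 of 36 moved, after thinning 7 of 26, and with other scalings 0 of 36; the scalings shifted all ratios by -0.01 or less in size. With 28 to 95 cells a subset in a library, intervals are wide for genes near 50 CPM.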

Other observations

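Adam23, a catalytically inactive member of the ADAM family, was among the 20 genes that led the members over other barcodes. It stood at 476 CPM in +/+ and 517 in fl/fl members, against 10.4 and 4.47 in the other barcodes. Adgrl3, an adhesion G protein-coupled receptor of the same 20, differed between the libraries in conventional cells. It stood there at 968 and 330.5 CPM (log2 ratio -1.55, -1.79 to -1.31), in 59 of 95 and 17 of 47 cells, and at 1342 and 688.5 CPM in the remaining conventional cells. Plasmacytoid cells held 0 UMIs of Adgrl3 in +/+ and 2 in fl/fl, and monocyte-macrophage barcodes 415.5 and 225.3 CPM.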
